A study of Homo sapiens with 4 samples.

Results

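Matricellular proteins are secreted into the extracellular matrix, where they act less as scaffold than as signals that bind integrins, growth factors and other matrix proteins and change how firmly a cell adheres. They are best known from wounds, remodelling hearts, bone and tumors, and several are made by endothelial cells, mesenchymal cells or platelets. The genes described here are osteopontin (SPP1), periostin (POSTN), TGFBI, SPARC, SPARCL1, thrombospondins 1 and 2 (THBS1, THBS2), tenascin C (TNC) and the CCN proteins CTGF and CYR61. These 10 genes were selected by symbol from the 58229 genes of the table. Where a symbol had several rows, the row was to be chosen by the highest mean of the 4 libraries, but each symbol had 1 row and no measured value entered the choice in this way. The list itself was drawn up when results of this comparison (HAND1_OE against Control) were already known, and its calls therefore describe the data and are not independent evidence that such genes rise.

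RNA was sequenced from CD31+ cells collected at day 8 of hematopoietic differentiation of the established human embryonic stem cell line H1. Control cells (2 libraries) did not overexpress HAND1, a basic helix-loop-helix transcription factor of mesoderm and heart, and HAND1_OE cells (2 libraries) did. Both groups received activin A and BMP4 and then VEGF and bFGF, and the comparison addresses which genes differ when HAND1 is held high in cells at the step from endothelium to blood. The construct, any cloning of the cells and the way CD31+ cells were isolated are not given in the sources used here, nor is it stated whether replicates came from separate cultures, so p-values measure the spread between these libraries, which may be technical.

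The values are FPKM, fragments scaled to transcript length and to the depth of the library, so that levels of different genes can be compared. HAND1 was at 12.1 and 14.3 FPKM in Control against 520 and 517 FPKM in HAND1_OE. Judged from how much 1 fragment adds to a single-exon gene, each library held about 21520000 to 25990000 fragments. Endothelial markers were high in all libraries, with PECAM1 (CD31) at 92.0 to 160 FPKM and CDH5 at 222 to 280 FPKM. The blood marker PTPRC (CD45) stayed at or below 0.0227 FPKM. The other blood markers compared below were expressed in Control, among them ITGA2B (CD41) at 92.4 and 115 FPKM and GATA1 at 25.6 and 29.6 FPKM. A log2 fold change is the difference between group means of log2(FPKM + 1), a scale on which low genes appear to change less than they do. Adjusted p-values are from limma with Benjamini-Hochberg adjustment over the 14622 genes that reached 1 FPKM in 2 or more libraries. A listed 0 may be a failed estimate and is no proof of silence.

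Of the 10 genes, SPP1, TGFBI, POSTN and SPARC rose with HAND1, and 0 fell. The other 4 genes tested, CYR61, THBS1, CTGF and TNC, did not pass, and SPARCL1 and THBS2 were too low to be tested. Among all genes tested, 4.16% were called, 2.04% higher and 2.11% lower. POSTN passed the filter only through HAND1_OE and TNC only through Control, so the filter itself selected a difference in these genes. SPP1 reached 1 FPKM in 1 Control library and in both HAND1_OE libraries, so its test also depended on its level in HAND1_OE. The median difference over all 10 genes, on the log2(FPKM + 1) scale, was 0.10, beside -0.08 over all genes tested. The libraries of the groups did not overlap for the 4 risen genes and for TNC. These are 5 of the 8 genes tested, beside 46.3% of all genes tested. SPARCL1 and THBS2, which were not tested, overlapped. In bulk RNA, fewer cells of a type and less RNA per cell cannot be told apart in any of these differences. An exact permutation test of a single gene cannot go below p = 0.333 with 2 libraries against 2.

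**Figure D1:**
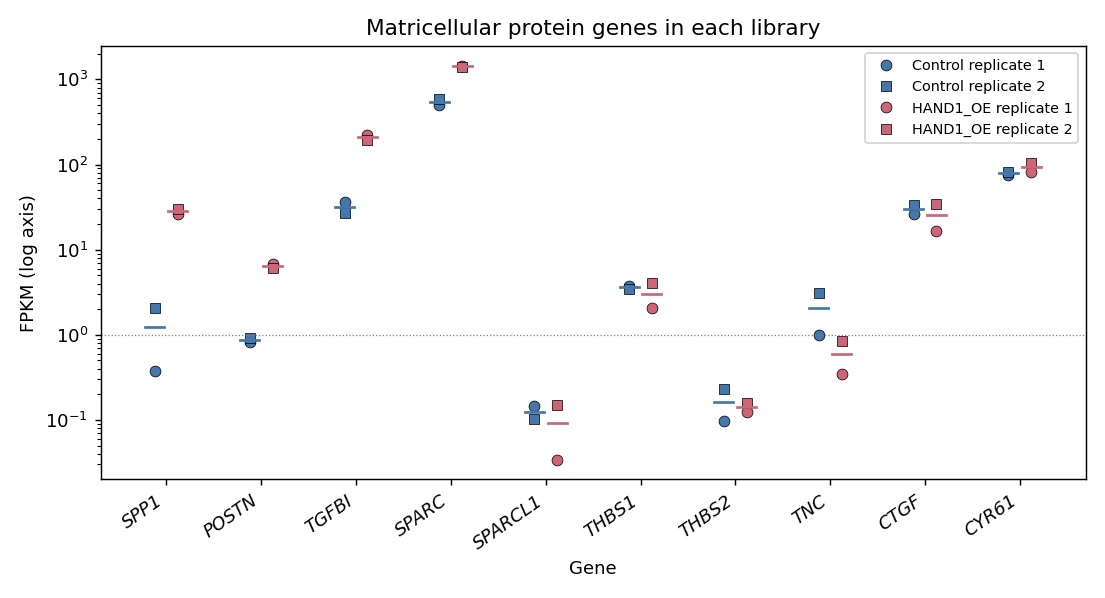
FPKM (log axis) of the 10 matricellular protein genes in each of the 4 libraries, with short lines at group means and a dotted line at 1 FPKM, the level of the filter. SPP1, POSTN, TGFBI and SPARC lie higher in both HAND1_OE libraries than in both Control libraries, SPARC from 505 and 594 to 1450 and 1387 FPKM, while CYR61, CTGF and THBS1 overlap.

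SPP1 encodes osteopontin, a phosphorylated glycoprotein of bone, macrophages and injured tissue that binds integrins and CD44. It lies on GRCh38 chromosome 4 from 87975650 to 87983426 (ENSG00000118785.13). SPP1 was at 0.379 and 2.09 FPKM in Control against 26.2 and 30.1 FPKM in HAND1_OE. The Control libraries were low and apart from each other, at an estimated 11.6 and 62.4 fragments over the longest transcript, and both HAND1_OE libraries were far above them, at an estimated 947 fragments each. The mean rose 22.8-fold, from 1.23 ± 1.21 to 28.2 ± 2.70 FPKM (SD, n = 2), and the lower HAND1_OE library was 12.6-fold above the higher Control library. Its log2 fold change of 3.82 (95% interval 2.86 to 4.78, limma adjusted p = 0.0104) was exceeded by 6 of all genes tested. The promoter is shown for the gene of the 10 with the largest log2 fold change, from the RefSeq window of 250 bases before the start (GRCh38.p14), cut to the letters upstream of the 5′ end of the gene in the table (chr4:87975464-87975649, plus strand). It is written 5′ to 3′, with capitals marking the E-box CANNTG, the general motif of basic helix-loop-helix factors such as HAND1, which reads alike on both strands.
SPP1: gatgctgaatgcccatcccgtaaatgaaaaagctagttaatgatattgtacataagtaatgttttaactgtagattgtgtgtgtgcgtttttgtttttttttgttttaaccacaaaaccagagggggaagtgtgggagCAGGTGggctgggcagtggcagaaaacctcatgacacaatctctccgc

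POSTN and TGFBI share the fasciclin domain and bind integrins, collagen and other matrix proteins. POSTN, a protein of heart valves, periosteum and fibrous tissue (ENSG00000133110.14, chromosome 13, 37562583 to 37598844), was at 0.825 and 0.922 FPKM in Control against 6.70 and 6.01 FPKM in HAND1_OE. Replicates were close in both groups and the mean rose 7.28-fold, from 0.874 ± 0.0685 to 6.36 ± 0.489 FPKM (SD, n = 2), with a log2 fold change of 1.97 (standard error 0.185, limma adjusted p = 0.0090). At an estimated 56.6 and 61.5 fragments in Control and 540 and 426 in HAND1_OE, POSTN stayed a low gene even after its rise. TGFBI, named for its induction by TGF-beta (ENSG00000120708.16, chromosome 5, 136028895 to 136063818), was at 36.7 and 26.7 FPKM in Control against 224 and 192 FPKM in HAND1_OE. The mean rose 6.56-fold, from 31.7 ± 7.05 to 208 ± 22.5 FPKM (SD, n = 2), with a log2 fold change of 2.69 (standard error 0.201, limma adjusted p = 0.00700). Both HAND1_OE libraries were at least 5.24 times as high as the higher Control library. For POSTN, which was low in Control like SPP1, the promoter (chr13:37598845-37599018, minus strand, written on the strand of the gene and cut in the same way) is shown with E-boxes in capitals.
POSTN: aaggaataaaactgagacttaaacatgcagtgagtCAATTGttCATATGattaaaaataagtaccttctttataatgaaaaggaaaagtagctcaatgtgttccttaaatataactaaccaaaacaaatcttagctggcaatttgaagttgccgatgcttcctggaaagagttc

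SPARC and SPARCL1 share a follistatin-like and a calcium-binding region but stood at opposite ends of the family. SPARC, also called osteonectin, is a collagen-binding protein of bone, endothelium and platelets (ENSG00000113140.10, chromosome 5, 151661096 to 151687165). It was at 505 and 594 FPKM in Control against 1450 and 1387 FPKM in HAND1_OE, both libraries of the latter above both of the former. The mean rose 2.58-fold, from 549 ± 62.9 to 1419 ± 44.5 FPKM (SD, n = 2), with a log2 fold change of 1.37 (standard error 0.181, limma adjusted p = 0.0220). This was the smallest change among the 4 risen genes, from the highest level. The call did not hold without Control replicate 1 (limma adjusted p = 0.0549), HAND1_OE replicate 1 (0.0823) or HAND1_OE replicate 2 (0.0730), although the log2 fold change stayed between 1.25 and 1.49. SPARCL1, or hevin, lies on chromosome 4 from 87473335 to 87531061 and was nearly silent, at 0.147 and 0.103 FPKM in Control and 0.0342 and 0.1501 FPKM in HAND1_OE. An estimated 2.41 to 9.32 fragments stood behind these values, and a difference was not detectable at this depth.

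The thrombospondins are large oligomeric proteins, of which thrombospondin 1 activates latent TGF-beta, restrains vessel growth and is stored in platelets. THBS1 (chromosome 15, 39581079 to 39599466) was at 3.78 and 3.44 FPKM in Control against 2.05 and 4.01 FPKM in HAND1_OE. The HAND1_OE libraries lay on either side of both Control libraries, and the log2 fold change of -0.24 (95% interval -0.93 to 0.46) had an adjusted p = 0.760 in limma. Its sign depended on HAND1_OE replicate 1, without which the log2 fold change was 0.12. THBS2 (chromosome 6, 169215780 to 169254044) was at 0.0978 and 0.228 FPKM in Control and 0.125 and 0.158 FPKM in HAND1_OE, both HAND1_OE values lying between the Control values, with an estimated 12.01 to 27.1 fragments behind each.

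Tenascin C is a many-armed glycoprotein that loosens adhesion to fibronectin and appears in embryonic and wounded tissue. TNC (chromosome 9, 115019578 to 115118257) was at 1.002 and 3.08 FPKM in Control against 0.345 and 0.844 FPKM in HAND1_OE. Both HAND1_OE libraries were below both Control libraries, but the log2 fold change of -0.86 (95% interval -1.83 to 0.11) did not pass (limma adjusted p = 0.352). Leaving out Control replicate 2 gave -0.35 and leaving out Control replicate 1 gave -1.37, so the size rested on the spread within Control.

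CTGF and CYR61 encode CCN2 and CCN1, integrin-binding regulators that respond within hours to serum, TGF-beta and stretch through YAP, TAZ and TEAD factors. CTGF (chromosome 6, 131948176 to 131951373) was at 26.4 and 33.1 FPKM in Control against 16.4 and 34.5 FPKM in HAND1_OE. The HAND1_OE libraries differed from each other by more than the Control libraries did, and the log2 fold change of -0.30 (95% interval -1.17 to 0.57, limma adjusted p = 0.759) turned to 0.22 without HAND1_OE replicate 1. AL133346.1, which overlaps CTGF on the opposite strand and whose reads may not be separable from it, was at or below 1.48 FPKM. CYR61 (chromosome 1, 85580761 to 85583962), the second most abundant of the genes in Control, was at 75.9 and 82.4 FPKM in Control against 82.2 and 104 FPKM in HAND1_OE. Its groups overlapped, with a log2 fold change of 0.23 (95% interval -0.21 to 0.66, limma adjusted p = 0.604). The CTGF promoter (chr6:131951374-131951622, minus strand, written on the strand of the gene) is shown as a known target of TEAD factors that did not pass, with capitals marking the TEAD motif CATTCC or its reverse complement GGAATG.
CTGF: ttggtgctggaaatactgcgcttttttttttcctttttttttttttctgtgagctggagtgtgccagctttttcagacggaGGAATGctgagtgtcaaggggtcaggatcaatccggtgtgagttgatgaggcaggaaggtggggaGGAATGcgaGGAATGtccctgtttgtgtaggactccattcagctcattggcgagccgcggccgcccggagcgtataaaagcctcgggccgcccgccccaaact

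**Figure D2:**
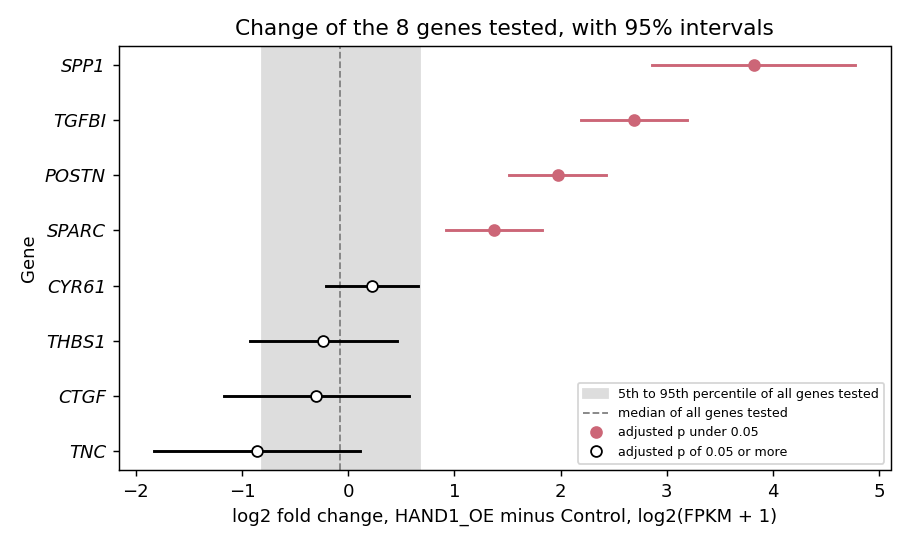
Log2 fold change (HAND1_OE minus Control, log2(FPKM + 1)) of the 8 genes tested, with 95% limma intervals as bars. The grey band holds the 5th to 95th percentile of all genes tested and the dashed line their median of -0.08. SPP1 (3.82), TGFBI (2.69), POSTN (1.97) and SPARC (1.37) lie to the right of the band, TNC (-0.86) has the lowest estimate with an interval that reaches 0.11, and the intervals of CYR61, THBS1 and CTGF include 0.

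The order of levels changed with the rises. In Control the means ran from SPARC, CYR61, TGFBI, CTGF and THBS1 through TNC, SPP1 and POSTN to THBS2 and SPARCL1. In HAND1_OE the order was SPARC, TGFBI, CYR61, SPP1, CTGF, POSTN, THBS1, TNC, THBS2 and SPARCL1. Neighbours whose libraries overlapped were TGFBI and CTGF, TNC and SPP1, SPP1 and POSTN, and THBS2 and SPARCL1 in Control. In HAND1_OE they were SPP1 and CTGF, and THBS2 and SPARCL1. Within each library TNC was above SPP1 in Control and THBS2 above SPARCL1 in HAND1_OE, whereas the order of the other overlapping pairs is unsettled. SPARC made up 77.7% to 80.2% of the summed FPKM of the 10 genes in every library. The sum was 650 and 746 FPKM in Control and 1808 and 1759.5 FPKM in HAND1_OE, which is 0.107% and 0.139% against 0.312% and 0.322% of all FPKM. TGFBI took 3.58% and 5.64% of the sum in Control and 10.9% and 12.4% in HAND1_OE, while CYR61 went from 11.1% and 11.7% to 4.55% and 5.94%.

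RefSeq promoters were matched for 9 of the 10 genes (not CYR61). Counted over the whole 250 bases, CANNTG was present in 6 of the 9 windows (SPP1, POSTN, SPARC, SPARCL1, THBS2 and TNC), beside 61.8% of 35116 RefSeq promoters. The SPP1 match began at position -112 from the start and those of POSTN at -215 and -207. TGFBI, which rose 6.56-fold, had no CANNTG in its window. The form CATCTG, or CAGATG on the other strand, was present only in SPARC among the 9, at position -232, beside 12.2% of all promoters, and this match is also counted under CANNTG. The TEAD motif was present in CTGF (positions -169, -104 and -95), THBS2, THBS1 and SPARC, beside 11.9% of all promoters. These matches describe letters in a short window and say nothing on whether a factor binds.

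SPP1 and SPARCL1 lie in the same stretch of chromosome 4, which also holds the bone and tooth matrix genes DSPP, DMP1, IBSP and MEPE, relatives of osteopontin. Of 25 genes in the window from 600 kb before to 300 kb after the SPP1 start, 7 were tested, and SPP1 was the single gene called. DSPP, DMP1, IBSP and MEPE were at or below 0.0753 FPKM in all libraries. The next protein-coding gene to the right, PKD2, was at 8.51 and 8.25 FPKM in Control and 7.55 and 8.12 FPKM in HAND1_OE. ABCG2, a drug efflux transporter further along, was at 3.91 and 2.46 FPKM in Control and 0.868 and 0.936 FPKM in HAND1_OE (log2 fold change -1.12, limma adjusted p = 0.0754). HSD17B11, at the left edge, had a log2 fold change of -0.76 (limma adjusted p = 0.0775), and NUDT9 (-0.06), the pseudogene AC093768.1 (-0.15) and PPM1K (0.29) did not pass either. Of the others, SPARCL1 is described above and 13 genes, mostly small RNAs and pseudogenes, were listed at 0 in every library.

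**Figure D3:**
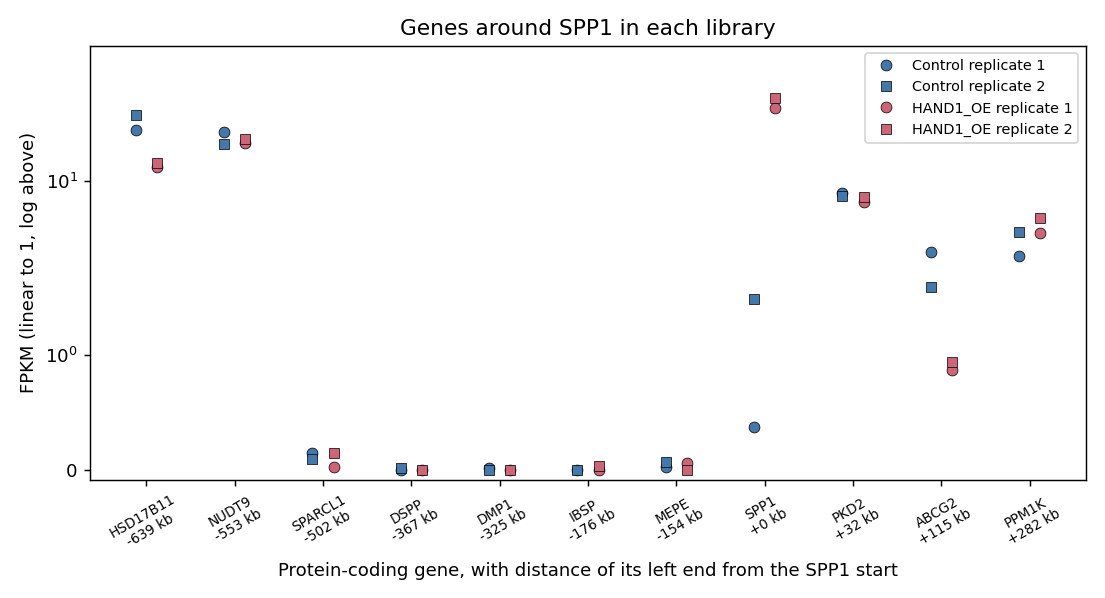
FPKM (axis linear up to 1 and logarithmic above) of the 11 protein-coding genes around SPP1 in each library, with the distance in kb of each gene from the SPP1 start. SPP1 goes from 0.379 and 2.09 to 26.2 and 30.1 FPKM, DSPP, DMP1, IBSP and MEPE stay at or below 0.0753 FPKM, and PKD2, next to SPP1, stays between 7.55 and 8.51 FPKM.

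Few further matricellular genes were measurable. Of 22 such genes, 9 were tested, 0 were called higher and 1 was called lower. That gene was SPOCK3, a proteoglycan related to SPARC, which fell from 5.62 and 6.09 to 1.32 and 1.27 FPKM (log2 fold change -1.58, limma adjusted p = 0.0150), and did not pass without Control replicate 2 (0.0582). FSTL1, another relative of SPARC, was abundant at 109 and 117 FPKM in Control and 146 and 213 FPKM in HAND1_OE but did not pass (limma adjusted p = 0.217). The median log2 fold change of the 9 was 0.41, beside -0.08 for all genes tested. This median includes THBS4 (0.54) and TNR (0.99), which passed the filter only through HAND1_OE, so the filter itself selected a rise in them. The other 13 genes, among them COMP, NOV and the SPP1 relatives, stayed under 1 FPKM in every library.

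Receptors for these ligands changed in both directions. Of 20 receptor genes, 16 were tested, of which 2 were called higher and 2 lower, with a median log2 fold change of 0.27 beside -0.08 for all genes tested. The 2 called lower, ITGB3 and ITGB2, passed the filter only through Control, so the filter itself selected a difference in them, and 0 receptors were called lower among genes with 1 FPKM in every library, where neither was tested. ITGA8, whose protein pairs with integrin beta 1 and binds osteopontin and tenascin C, rose from 3.75 and 3.63 to 23.4 and 19.7 FPKM (log2 fold change 2.26, limma adjusted p = 0.00700). ITGB3, the beta chain of the osteopontin and vitronectin receptor on endothelium and of the platelet fibrinogen receptor, fell from 10.4 and 17.8 to 0.803 and 0.695 FPKM (-3.07, adjusted p = 0.00851). ITGB2, the beta chain of leukocyte integrins, fell from 2.19 and 3.52 to 0.424 and 0.281 FPKM (-1.49, adjusted p = 0.0399), a call lost without Control replicate 2 (0.128) or HAND1_OE replicate 2 (0.0617). Blood and megakaryocyte markers, described further on, fell alongside both, and their part in these falls was not tested. LRP1, an endocytic receptor for thrombospondins, went from 12.7 and 15.5 to 25.8 and 28.9 FPKM, at the edge of the threshold (0.91, adjusted p = 0.0497), and the call was lost on leaving out any of the 4 libraries (adjusted p = 0.0757 to 0.209). ITGB1, the partner of ITGA8, was at 130 to 234 FPKM and ITGAV, the partner of ITGB3 in the vitronectin receptor, at 25.9 to 43.4 FPKM, and neither passed. ITGA2B, the partner of ITGB3 in the platelet fibrinogen receptor, was called lower and is given with the blood markers. CD44, another osteopontin receptor, was at 38.8 and 61.2 FPKM in Control and higher in both HAND1_OE libraries, at 75.1 and 117 FPKM. It did not pass (limma adjusted p = 0.195).

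Among 12 binding partners and modifying enzymes, 10 were tested, 2 rose and 1 fell. FN1, fibronectin, rose from 574 and 541 to 1613 and 1267 FPKM (log2 fold change 1.36, limma adjusted p = 0.0280), and so did BMP1, a protease that processes collagen and other matrix proteins, from 15.7 and 15.4 to 31.6 and 35.4 FPKM (1.06, adjusted p = 0.0250). FAM20C, the secretory pathway kinase that phosphorylates osteopontin, fell from 6.82 and 7.18 to 2.07 and 2.97 FPKM (-1.20, adjusted p = 0.0397). FN1 did not pass on leaving out any of the 4 libraries (limma adjusted p = 0.0515 to 0.112). BMP1 did not pass without Control replicate 1, Control replicate 2 or HAND1_OE replicate 2 (limma 0.0554 to 0.108), nor FAM20C without Control replicate 1, Control replicate 2 or HAND1_OE replicate 1 (0.0861 to 0.142). COL1A1 and COL1A2, chains of the collagen that SPARC binds, were lower in both HAND1_OE libraries but did not pass (adjusted p = 0.520 and 0.123). The matrix proteases MMP3 and MMP7, which cut osteopontin, were listed at 0 in every library. Other matrix proteases of the list were abundant. MMP9 was at 99.3 and 61.1 FPKM in Control and 39.3 and 22.6 FPKM in HAND1_OE. MMP2 was at 104 and 80.5 FPKM in Control and 132 and 154 FPKM in HAND1_OE, and neither passed (limma adjusted p = 0.105 and 0.161).

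Components of the TGF-beta and YAP pathways, which are known to induce these genes, gave 1 call. Of 9 TGF-beta ligands, receptors and SMADs, 8 were tested and SMAD3 alone was called, rising from 5.40 and 6.68 to 13.0 and 13.7 FPKM (log2 fold change 1.03, limma adjusted p = 0.0379), a call lost on leaving out any of the 4 libraries (0.0729 to 0.155). TGFB1 was at 157 to 225 FPKM and its groups overlapped. Of 8 YAP, TAZ, TEAD and LATS genes, all tested, 0 were called in limma. WWTR1, which encodes TAZ, came nearest, at 52.0 and 62.8 FPKM in Control and 98.0 and 111 FPKM in HAND1_OE (0.85, adjusted p = 0.0557). Of 21 YAP targets other than CTGF and CYR61, 20 were tested, with a median log2 fold change of 0.01. ARHGEF17 rose (1.09, adjusted p = 0.0349) and FJX1 fell (-1.23, adjusted p = 0.0227). ARHGEF17 did not pass without Control replicate 1, Control replicate 2 or HAND1_OE replicate 1 (0.0754 to 0.139), nor FJX1 without Control replicate 1 (0.0528) or Control replicate 2 (0.0995).

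**Figure D4:**
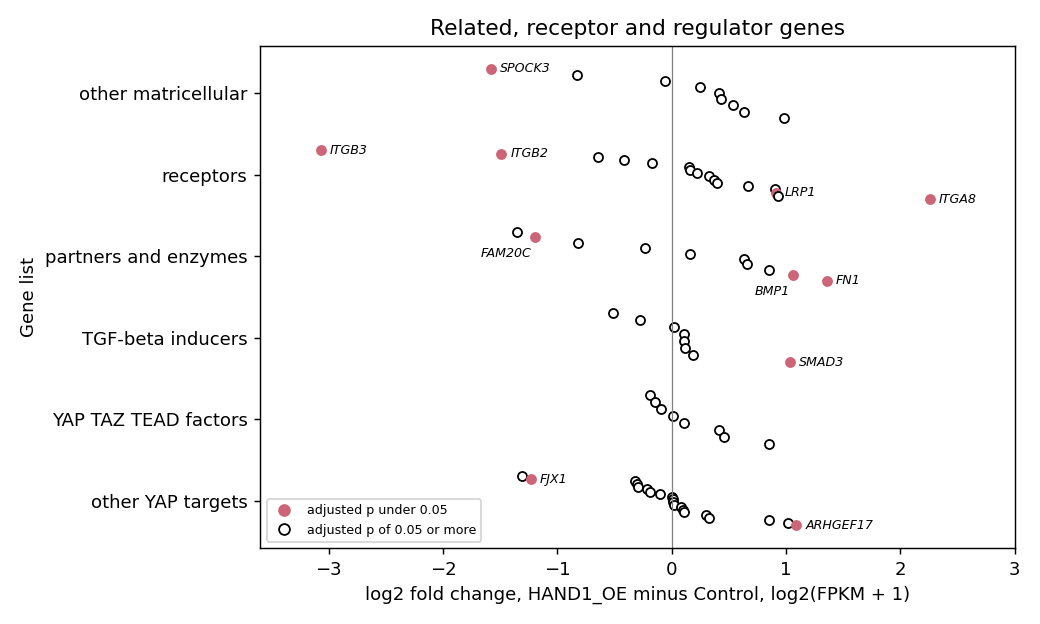
Log2 fold change (HAND1_OE minus Control, log2(FPKM + 1)) of each tested gene in 6 lists of relatives, receptors, partners and regulators of the matricellular genes, with genes of an adjusted p under 0.05 filled and named. ITGA8 (2.26) and ITGB3 (-3.07) lie at the ends of the receptor list, and the YAP, TAZ, TEAD and LATS genes lie between -0.19 and 0.85.

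Marker genes of the cell types that a CD31+ sample could hold were compared in the same way. Summed over 8 endothelial markers the level was 1418 and 1337 FPKM in Control and 1247 and 1433 FPKM in HAND1_OE, and 0 of 8 were called. Within this sum EMCN was at 22.8 and 34.2 FPKM in Control and 58.5 and 88.3 FPKM in HAND1_OE (limma adjusted p = 0.0688). CD34 was at 67.5 and 130 FPKM in Control and 21.7 and 70.0 FPKM in HAND1_OE, with overlapping groups (adjusted p = 0.367). Blood markers summed to 179 and 228 FPKM in Control and 22.4 and 16.4 FPKM in HAND1_OE, with 5 of 6 called lower and PTPRC near 0. The largest falls among them were those of GATA1, an erythroid and megakaryocyte transcription factor (log2 fold change -3.86, limma adjusted p = 0.00700), ITGA2B (CD41, -3.62, adjusted p = 0.00730) and RUNX1, a regulator of blood formation (-3.22, adjusted p = 0.0132). Megakaryocyte markers summed to 109 and 135 against 12.1 and 7.24 FPKM. Of these 6 genes 4 were tested, all called lower, and PPBP was at or near 0. The blood and megakaryocyte lists share ITGA2B, which at 92.4 and 115 FPKM in Control and 10.3 and 5.33 FPKM in HAND1_OE made up most of the megakaryocyte sum, so their sums and counts are not separate. The other megakaryocyte genes called were GP9 (-2.38, adjusted p = 0.00730), GP1BA (-2.27, adjusted p = 0.0115) and PF4 (-1.56, adjusted p = 0.0335), of which GP9 and PF4 passed the filter only through Control. All 5 blood markers called, GP9 and GP1BA stayed past the threshold on leaving out each library, whereas PF4 did not pass without Control replicate 1, Control replicate 2 or HAND1_OE replicate 2 (limma adjusted p = 0.0522 to 0.104). GATA1 and SPN, among the blood markers called, reached 1 FPKM in both Control libraries but in 1 HAND1_OE library. Their tests therefore also depended on their levels in Control. Of the genes known from platelets, SPARC rose and THBS1 did not pass. Macrophage markers, of interest because macrophages make osteopontin, summed to 55.7 and 52.7 against 20.8 and 17.4 FPKM. Of these 7 genes 4 were tested and 2 called lower. These were SPI1 (log2 fold change -2.86, limma adjusted p = 0.0149) and LYZ (-2.36, adjusted p = 0.0220), of which LYZ passed the filter only through Control. CD14 was at 0.223 to 0.676 FPKM throughout. Osteoblast markers summed to 3.70 to 5.69 FPKM, and of these 5 genes 2 were tested and 0 called. RUNX2, SP7 and IBSP, the markers that define that lineage, stayed under 1 FPKM. Within that range SP7 was at 0.0377 and 0.0860 FPKM in Control against 0.352 and 0.857 FPKM in HAND1_OE, and RUNX2 at 0.489 and 0.380 against 0.916 and 0.664 FPKM, neither of them tested.

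Of 7 fibroblast markers 5 were tested and 1 was called, LUM. Like SPP1, TGFBI, POSTN and SPARC it was higher in HAND1_OE, and the part of fibroblasts in these rises was not tested. The fibroblast markers summed to 646 and 585 FPKM in Control and 1006 and 996 FPKM in HAND1_OE. LUM rose from 14.8 and 17.7 to 50.1 and 39.7 FPKM (log2 fold change 1.41, limma adjusted p = 0.0214), a call lost without Control replicate 1 (0.0739). COL3A1 and THY1 made up most of the sum and did not pass (adjusted p = 0.1004 and 0.117). PDGFRA was at 3.54 and 4.22 FPKM in Control and 8.33 and 12.4 FPKM in HAND1_OE, and did not pass either (1.20, adjusted p = 0.0547). COL1A1 was lower in both HAND1_OE libraries, at 70.0 and 74.0 FPKM against 89.9 and 79.7 FPKM, and did not pass. DCN, a defining marker, was at 0.180 and 1.72 FPKM in Control and 0.199 and 0.636 FPKM in HAND1_OE, and FAP was at or near 0 in every library. Mural markers summed to 307 and 286 FPKM in Control and 298 and 322 FPKM in HAND1_OE. Of these 7 genes 5 were tested and 1 was called, PDGFRB. It rose from 7.92 and 5.09 to 32.6 and 25.9 FPKM (2.03, limma adjusted p = 0.0164). CSPG4 was at 1.61 and 8.03 FPKM in Control and 21.7 and 26.6 FPKM in HAND1_OE, and did not pass (2.36, adjusted p = 0.0940). RGS5 was lower in both HAND1_OE libraries and did not pass (adjusted p = 0.535), and MYH11 stayed at or below 0.0157 FPKM. Epithelial markers summed to 230 to 327 FPKM over the libraries with 0 of 5 called.

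**Figure D5:**
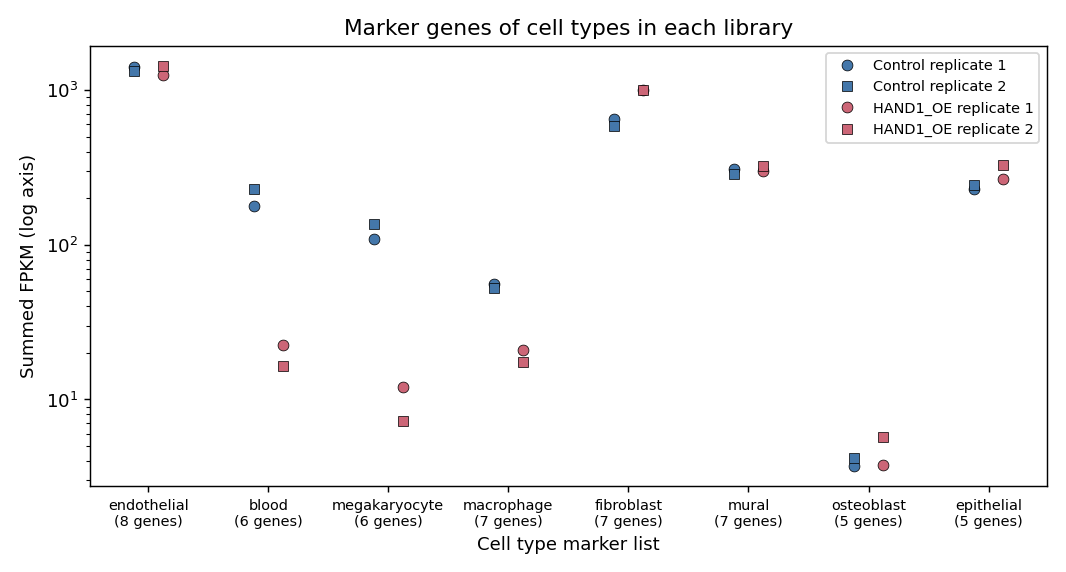
Summed FPKM (log axis) of 8 marker lists in each library. The endothelial sums overlap between groups, and the blood, megakaryocyte and macrophage sums are lower in both HAND1_OE libraries. The fibroblast sum is 1006 and 996 against 646 and 585 FPKM, and the osteoblast sum stays at 3.70 to 5.69 FPKM.

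The tested genes nearest to SPP1 in pattern, by Euclidean distance between centred log2(FPKM + 1) values over the 4 libraries, were ALDH1A3 (distance 0.38), XAF1 (0.65) and KCNIP4 (0.94). ALDH1A3, an enzyme of retinoic acid synthesis, was at 0.469 and 1.92 FPKM in Control and 19.2 and 27.8 FPKM in HAND1_OE, with Control replicate 2 above replicate 1 as in SPP1. Nearest to POSTN were CLVS1 (0.10), CBLN2 (0.12) and AC105020.4 (0.14). AC105020.4 was near 0 in Control and lies within the span of CSPG4 on chromosome 15, whose reads may not be separable from it. XAF1, KCNIP4 and AC105020.4 passed the filter only through HAND1_OE. The likeness of these genes to SPP1 and POSTN rests on 4 libraries and is a description.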

How the data were processed

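RNA of CD31+ cells (2 Control and 2 HAND1_OE libraries, grouped by sample title) had been sequenced after an Illumina TruSeq preparation. The authors deposited a single table with 1 value per gene and library, read here as FPKM, the unit of the study's own plots. The submitters' processing notes name BWA, Bowtie, RSEM and the build hg19, with no role or version, but 97.1% of genes had the GRCh38 coordinates of GENCODE release 29. RSEM divides shared reads between genes by estimate. The kit is not known here to keep strand, so exon overlaps on the opposite strand (at SPARC, THBS1, TNC and CTGF) cannot be separated. Rows for Y copies of pseudoautosomal genes (45) and repeated gene IDs (91) were left out.

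Values were fitted as log2(FPKM + 1) with limma-trend (limma 3.58.1 under R 4.3.3) for the 14622 genes reaching 1 FPKM in 2 or more libraries, with a threshold of 0.05 on p-values adjusted over all genes. The test is two-sided. The code was tested on simulated data. Fragments were estimated from the value of a single fragment in single-exon genes of at least 400 nt, and cover counting only. Members and gene lists were chosen with earlier results of these data known. Named genes are the 10 members, HAND1, up to 3 called genes of each list with the largest changes, the genes around SPP1 and the 3 nearest patterns of SPP1 and of POSTN. LRP1, the fourth receptor called, the fourth megakaryocyte gene called and other genes named were picked with their values in view. Alternatives were a pseudocount of 0.1, other filters, scalings, no trend, a replicate block, each library left out and a fold change of at least 2.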

Additional observations from a re-analysis of the deposited data

How the results depend on the processing

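SPP1, POSTN and TGFBI stayed past the threshold in each alternative that tested them, with a single exception. When the test took in each of the 29860 genes detected at all, 0 members were called higher (4 at an unadjusted p under 0.05 in limma) and 0 genes were called in either direction (unadjusted, limma passed 1458 higher and 2352 lower). HAND1 then kept its log2 fold change of 5.20 with a limma adjusted p = 0.153, SPP1 had 0.170, POSTN and TGFBI 0.153 and SPARC 0.184. With 1 FPKM required in every library, 2 members were called (TGFBI and SPARC), because SPP1, POSTN and TNC were no longer tested. Leaving out each library gave 3 to 4 members called higher, and SPARC was the gene lost. Over all genes it gave 134 to 266 higher and 137 to 309 lower, with the lowest counts without Control replicate 2 (134 and 137) and Control replicate 1 (141 and 144), and HAND1 stayed between 5.08 and 5.31. Without HAND1_OE replicate 1 the log2 fold changes of THBS1 and CTGF reversed, and over the 4 omissions they ran from -0.59 to 0.12 and from -0.81 to 0.22. Deviations of same-numbered libraries correlated at 0.383 across genes, but 2 pairs do not show that numbers pair the samples. With the replicate block, 597 genes were higher and 712 lower, and the same 4 members were called. Median-ratio scaling moved the counts to 335 higher and 242 lower, and quantile normalization to 353 and 273, with the same 4 members called. The 2 libraries per group and the low levels of SPARCL1, THBS2 and, in Control, SPP1 and POSTN limit these results.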

Other observations

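CTGF and CYR61 were higher in replicate 2 than in replicate 1 in both groups. The same was true of 17 of the 20 other YAP targets tested, or 85%, beside 33.3% of all genes tested. The share was also above that of all genes in the YAP, TAZ, TEAD and LATS genes (5 of 8), the receptors (9 of 16) and the matricellular genes themselves (4 of 8). The median log2 difference of replicate 2 minus replicate 1 over the 20 YAP targets was 0.26 in Control and 0.49 in HAND1_OE, beside -0.03 and 0.01 over all genes tested. ANKRD1, for example, was at 6.42 and 8.60 FPKM in Control against 4.34 and 7.72 FPKM in HAND1_OE. These counts are not separate, since LATS2 is both among the 20 YAP targets and among the YAP, TAZ, TEAD and LATS genes. CTGF and CYR61 are also among the 4 matricellular genes counted. The pattern was noticed in these data and was not tested.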
